A study of Homo sapiens with 12 samples.

Results

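The integrin and laminin subunits are the genes of the count table whose symbols name an integrin alpha subunit (ITGA), an integrin beta subunit (ITGB), or a laminin alpha, beta, or gamma chain (LAMA, LAMB, LAMC). This rule takes 38 of the 60649 genes in the table, of which 18 encode integrin alpha subunits, 8 encode integrin beta subunits, and 12 encode laminin chains. Their RNA was measured in 12 RNA sequencing libraries of SK-LMS-1 and SK-UT-1B, established cell lines of uterine leiomyosarcoma (uLMS, a smooth muscle cancer) labelled as wild type. SK-UT-1B comes from a primary tumor and has an epithelial-like shape, and SK-LMS-1 comes from a vulvar metastasis. All cells were kept briefly without serum and then exposed for 72 h. SK-UT-1B received DMSO vehicle (libraries 4-1 and 4-2) or MK-0752 combined with gemcitabine and docetaxel, called the combination (libraries 3-1 and 3-3). SK-LMS-1 received DMSO (libraries 2-1 and 2-3, called DMSO set 2, and libraries 4-1 and 4-2, called DMSO set 4), MK-0752 alone (libraries 2-2 and 2-3), or the combination (libraries 4-1 and 4-2). Each treatment was given at its IC30, the concentration calculated to lower viability by that percentage in the line, so the doses differ between the lines. For the combination this was the IC30 of the mixture, in which every agent was below its own IC30, so MK-0752 was at a lower dose in the combination than its IC30 as a single agent, and the SK-LMS-1 treatments were not matched in dose. The inhibitor MK-0752 blocks gamma secretase, which frees the active part of Notch receptors, gemcitabine is a nucleoside analog, and docetaxel stabilizes microtubules. Each line is a single cell line, and the labels do not say whether the libraries of a group came from separate cultures, so p-values measure the spread between libraries, which may be technical. Unless said otherwise, that spread was estimated from all 12 libraries of both lines together. A p-value for treatment within a line therefore also rests on the spread in the other line.

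Integrins are receptors of an alpha and a beta subunit that join the extracellular matrix to the actin cytoskeleton and signal through focal adhesions. Laminins are trimers of an alpha, a beta, and a gamma chain that polymerize into the basement membrane and are ligands of the integrins with ITGA3, ITGA6, or ITGA7. In smooth muscle, each cell is surrounded by a basement membrane, and integrins with ITGB1 anchor the cell to it.

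Between 25250057 and 40709885 reads were counted per library. Low counts were less certain than counting alone gives, since 17.4% to 34.6% of the genes that should have had 5 to 500 counts, judged by the remaining libraries of that line, were at 0 in a library, against 0.0212% to 0.0386% under Poisson counting. Intervals and lower bounds for members with few counts cover counting error only. Among smooth muscle markers, CALD1 had 7490 to 14223 counts in SK-LMS-1 and 1205 to 1762 in SK-UT-1B, MYH11 had at most 5 counts in any library, and DES had 0 counts in all SK-LMS-1 libraries and 50 to 282 in SK-UT-1B. ACTA2, CNN1, TAGLN, SMTN, and LMOD1 were detected in both lines, and MYOCD had at most 36 counts. Of the 8 smooth muscle markers tested after DMSO, 6 were higher and 1 was lower in SK-LMS-1 by the rule given below. By that rule, 17.0% of all genes tested were higher and 14.1% were lower. The marker list summed to 537.6 to 621 CPM (counts scaled to library size by TMM) in SK-LMS-1 and 85.0 to 124 in SK-UT-1B. Epithelial keratins differed in the same direction, since KRT8 had 2607 to 3998 counts in SK-LMS-1 and 0 in SK-UT-1B, whereas CDH1 had at most 3 counts anywhere. KRT18, KRT19, and CLDN4 were also higher in SK-LMS-1, which makes 4 of 6 tested, while EPCAM had at most 37 counts and ESRP1 at most 91. The 7 epithelial markers summed to 169.5 to 266 CPM in SK-LMS-1 and 0.637 to 3.58 in SK-UT-1B, and their part in the differences of subunits between the lines was not tested. PTPRC, the leukocyte marker, had at most 47 counts. CD3E, LYZ, and TYROBP had at most 34 counts, and CD14 and CD68 reached 133 and 91. The platelet markers GP9, PF4, and PPBP were at 0 in every library, and GP1BA had 14 counts in 1. PECAM1 had 36 to 264 counts in SK-LMS-1 and 0 in SK-UT-1B, CDH5, VWF, and TEK had at most 58, and KDR was at 0. HES1, a Notch target whose fall the study used to choose the treatments sequenced, was downregulated by MK-0752 alone (log2FC -2.76 ± 0.51 (SE), adjusted p = 0.0153) and by the combination in SK-LMS-1 (-3.37 ± 0.52, adjusted p = 0.0227), and its log2FC in SK-UT-1B did not pass the test (-1.70 ± 0.49, adjusted p = 0.141).

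The first comparison asked how the subunits differ between the lines in the absence of drug. After DMSO, 20 of the 33 subunits that could be tested had a higher level in SK-LMS-1, with SK-UT-1B as the reference, and 3 had a lower one, where called means that log2FC reached 1 in size with edgeR's p, adjusted by Benjamini-Hochberg over 21114 genes, under 0.05. Of all genes tested, 17.0% were higher and 14.1% were lower by the same rule. The subunits higher in SK-LMS-1 included the laminin receptor subunit ITGA3, all 4 collagen receptor alpha subunits, ITGB1, ITGB5, and ITGB8, and the laminin chains LAMA3, LAMA4, and LAMB3, whereas ITGA9, ITGB4, and LAMC3 were lower. The median log2FC of the 33 was 2.50, and that of all genes tested was 0.00. Libraries did not overlap between all 8 of SK-LMS-1 and all 4 of SK-UT-1B for 25 of the 33. Of these, 22 were higher in SK-LMS-1, where 19.4% of all genes tested behaved so, and 3 were lower, where 17.4% did. In bulk RNA, fewer cells with a transcript and less of it per cell cannot be told apart.

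**Figure D1:**
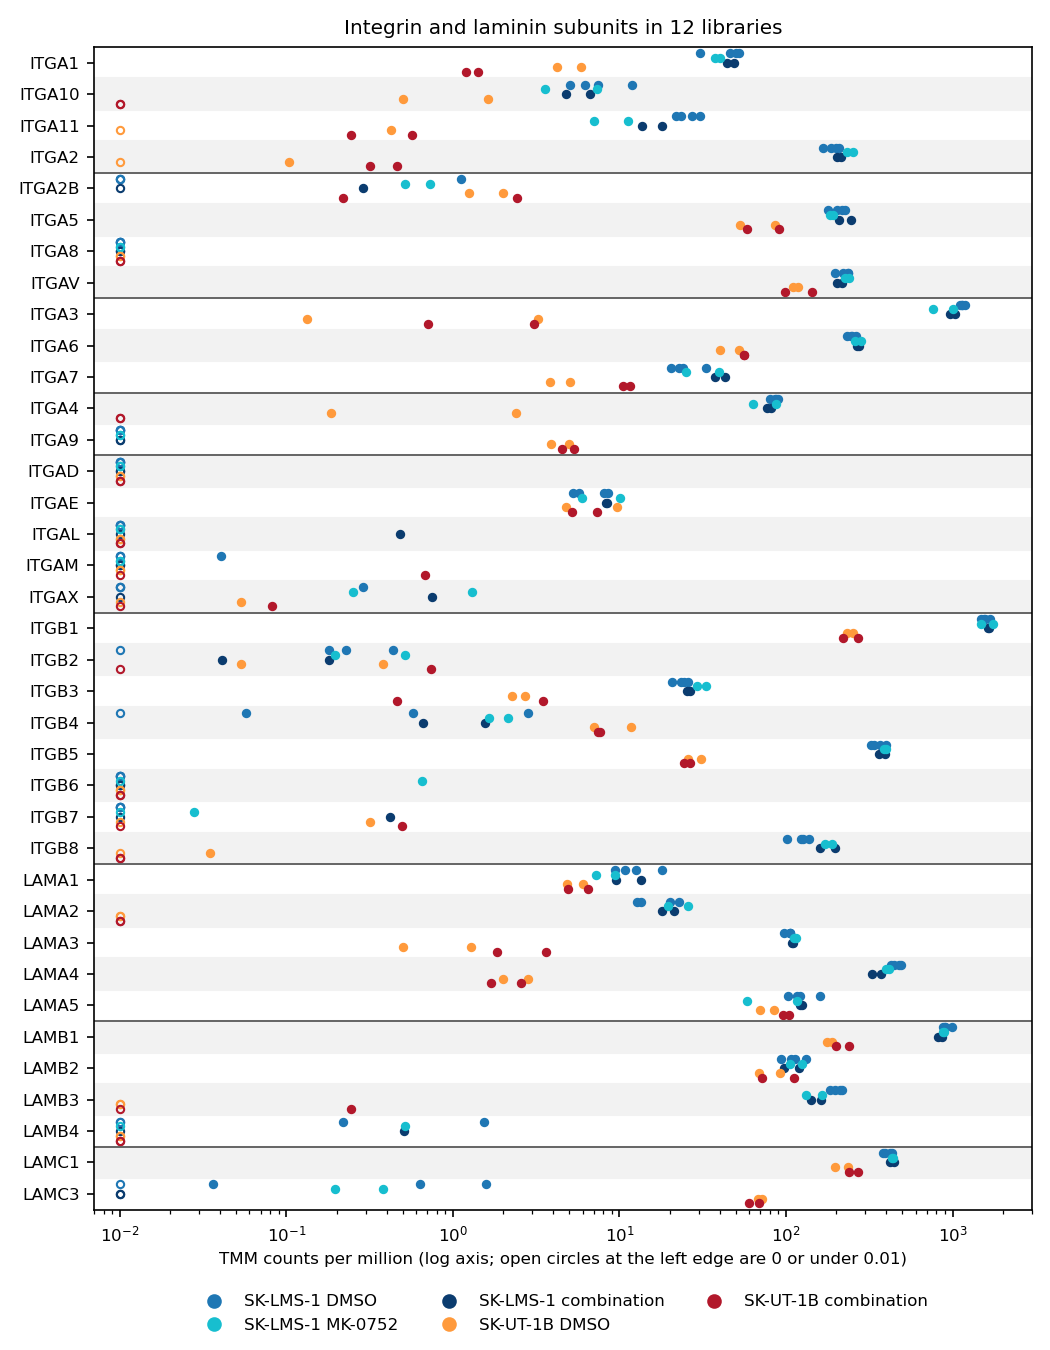
Level of 37 subunits in each library, in TMM-scaled CPM on a log axis, with a point per library colored by line and treatment and open circles at the left edge for 0. Points of SK-LMS-1 (blue) lie to the right of those of SK-UT-1B (orange and red) for 21 subunits shown and to the left for ITGA9, ITGB4, and LAMC3, while treatments of a line mostly lie together.

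Of the 38 subunits, 5 did not pass the filter on low counts. ITGA8 and ITGAD were at 0 in all 12 libraries, which allows up to 0.00775 CPM over all of them. ITGAL had 16 counts in SK-LMS-1 combination 4-1 and ITGB6 had 24 in SK-LMS-1 MK-0752 2-3, with 0 in the others. ITGAM had 25 counts in SK-UT-1B combination 3-1, 1 in SK-LMS-1 DMSO 4-1, and 0 in the others.

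ITGA3 (chr17:50055968-50090481 in hg38), an alpha subunit that pairs with ITGB1 to bind laminins of epithelia and smooth muscle, had 759 CPM at the lowest, 1069 at the median, and 1183 at the highest in the 8 SK-LMS-1 libraries. In SK-UT-1B it had 3.25 and 0.133 CPM after DMSO and 0.710 and 3.09 after the combination. Every SK-LMS-1 library was far above every SK-UT-1B library, and within SK-UT-1B the libraries of a treatment were as far apart as any. The log2FC between the lines after DMSO was 9.48 ± 1.18 (SE), with an adjusted p of 0.000677. Leaving out 1 library moved it to between 8.46 and 12.99. ITGA6, which pairs with ITGB1 or ITGB4, had 233 to 283 CPM in SK-LMS-1 with a median of 261, and 40.3, 51.9, 56.2, and 55.8 CPM in the 4 SK-UT-1B libraries, so that it was present in both lines but 2.42 ± 0.15 higher on the log2 scale in SK-LMS-1 (adjusted p = 8.95e-11). ITGA7, the muscle laminin receptor, was 2.50 ± 0.32 higher in SK-LMS-1 (adjusted p = 2.14e-06).

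ITGB4 (chr17:75721328-75757818), the hemidesmosome beta subunit that pairs only with ITGA6, ran the other way. It had 0 to 2.83 CPM in SK-LMS-1, with a median of 1.11, and 11.8, 7.03, 7.60, and 7.38 CPM in the SK-UT-1B libraries. The groups did not overlap, but SK-LMS-1 libraries ranged from 0 to 109 counts. Its log2FC was -3.80 ± 1.14 (adjusted p = 0.0138).

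All 4 alpha subunits that bind collagen, each as a partner of ITGB1, were higher in SK-LMS-1. ITGA2 was close to absent from SK-UT-1B after DMSO, with 3 and 0 counts against 4131 to 7754 in the 4 SK-LMS-1 DMSO libraries, a ratio of 4276 with a 95% counting interval of 1463 to 20730 (log2FC 11.92 ± 0.38, adjusted p = 2.62e-15). This SE comes from the test statistic and is narrower than the counting interval, so it understates the uncertainty of the ratio. ITGA11, first known from mesenchymal cells, had a log2FC of 6.80 ± 0.80 (adjusted p = 5.89e-06). Leaving out 1 library moved this log2FC to between 5.87 and 12.68. ITGA1, a collagen receptor of smooth muscle, had 30.6 to 52.4 CPM in SK-LMS-1 after DMSO against 4.22 and 5.86 in SK-UT-1B (log2FC 3.14 ± 0.29, adjusted p = 2.3e-08). ITGA10, best known from cartilage, had 5.03 to 11.9 CPM against 1.63 and 0.504 (log2FC 2.80 ± 0.78, adjusted p = 0.00721). By the mean after DMSO, ITGA1 was the collagen receptor subunit with the highest level per kilobase of exons in SK-UT-1B and ITGA2 in SK-LMS-1. In library SK-UT-1B DMSO 4-1, however, ITGA10 was above ITGA1 by this measure. Without SK-UT-1B DMSO 4-2 the call of ITGA10 was lost (log2FC 2.18, adjusted p = 0.105).

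Of the alpha subunits that bind the RGD motif, only ITGA5 passed the test. ITGA5, the fibronectin receptor subunit, had 179 to 247 CPM in SK-LMS-1 with a median of 205, and 86.4, 53.1, 90.9, and 58.5 CPM in the SK-UT-1B libraries. The lines did not overlap, and the log2FC was 1.57 ± 0.21 (adjusted p = 1.14e-05). ITGAV, the partner of ITGB1, ITGB3, ITGB5, ITGB6, and ITGB8, had a log2FC of 0.96 ± 0.16, with an adjusted p of 4.85e-05 but under the minimum of 1, and its libraries did not overlap either (196 to 240 CPM against 98.1 to 144). ITGA2B, the platelet subunit, had 0 to 39 counts in SK-LMS-1 and 8 to 68 in SK-UT-1B (log2FC -5.12 ± 2.23, adjusted p = 0.0752).

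ITGA4 and ITGA9 are related alpha subunits, of which ITGA4 binds VCAM1 and fibronectin and ITGA9 binds tenascin C. ITGA4 had 63.7 to 89.9 CPM in SK-LMS-1 with a median of 83.1, and 69 and 7 counts (2.39 and 0.186 CPM) after DMSO and 0 and 0 after the combination in SK-UT-1B. ITGA9 (chr3:37452115-37823507) had 0 counts in all 8 SK-LMS-1 libraries and 112, 188, 195, and 127 counts in SK-UT-1B. The pair ran in opposite directions between the lines, at a log2FC after DMSO of 6.12 ± 0.87 for ITGA4 (adjusted p = 0.0018). Leaving out 1 library moved the log2FC of ITGA4 to between 5.16 and 8.78. ITGA9 was lower in SK-LMS-1 by at least 189-fold, taking 3 counts over the group as the floor (adjusted p = 0.000203). CERKL shares 26.4% of the exon bases of ITGA4 on the opposite strand, and ITGA9-AS1 shares 9.23% of those of ITGA9. The strand setting of the counts was not given in the sources used here, so these values are uncertain to that extent.

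Of the 5 leukocyte alpha subunits, ITGAE, which pairs with ITGB7 and binds E-cadherin, was the only one at more than 50 counts in any library. It had 5.27 to 10.1 CPM in SK-LMS-1 with a median of 8.20, and 4.74, 9.60, 7.32, and 5.22 in SK-UT-1B, so that the lines overlapped (log2FC -0.09 ± 0.47, adjusted p = 0.955). ITGAX had 0, 8, 0, and 0 counts in the SK-LMS-1 DMSO libraries and 0 and 2 in those of SK-UT-1B, too few to give a direction, and at most 48 in any library. Their beta partners were as low, with ITGB2 at 0 to 27 counts (log2FC -0.29 ± 2.58) and ITGB7 at 0 to 14 (-5.40 ± 3.13), and neither passed the test. ZNF740 shares 42.3% of the exon bases of ITGB7 on the opposite strand.

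ITGB1, the beta subunit that most alpha subunits pair with, was the highest beta subunit in both lines. It had 1475 CPM at the lowest, 1601 at the median, and 1752 at the highest in SK-LMS-1, and 232, 253, 271, and 221 CPM in the SK-UT-1B libraries. All SK-LMS-1 libraries were above all SK-UT-1B libraries, at a log2FC after DMSO of 2.69 ± 0.14 (adjusted p = 3.2e-12). ITGB5 and ITGB3, the beta subunits that join ITGAV in vitronectin receptors, were higher by 3.65 ± 0.16 (adjusted p = 3.5e-13) and 3.25 ± 0.57 (adjusted p = 0.000425). A protein-coding gene on the same strand shares 33.2% of the exon bases of ITGB3. ITGB8 (chr7:20330702-20415754), whose pair with ITGAV activates latent TGF-beta, had 2499 to 6726 counts in SK-LMS-1 and 1 count in the 4 SK-UT-1B libraries together. The ratio after DMSO was 8245 with a 95% counting interval of 1480 to 325700 (log2FC 12.65 ± 0.40, adjusted p = 8.65e-15).

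LAMA4 (chr6:112107931-112254939), a laminin alpha chain of vessel walls and muscle, was the highest alpha chain of SK-LMS-1, with 328 to 493 CPM and a median of 420. It had 2.84, 1.99, 1.69, and 2.56 CPM in the SK-UT-1B libraries, and the lines were wide apart (log2FC after DMSO 7.58 ± 0.23, adjusted p = 1.33e-15). LAMA3, the alpha chain of the epithelial laminin that also holds LAMB3, had 97.5 to 115 CPM in SK-LMS-1 and 0.504 to 3.63 in SK-UT-1B (log2FC 6.90 ± 0.36, adjusted p = 4.81e-11). LAMA2, the alpha chain of skeletal muscle and peripheral nerve, had 437 to 918 counts in SK-LMS-1 and 0 in all 4 SK-UT-1B libraries, a difference after DMSO of at least 367-fold (adjusted p = 3.08e-09).

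LAMA5, an alpha chain of most adult basement membranes, differed little between the lines. It had 58.7 to 159 CPM in SK-LMS-1 with a median of 119, and 84.6, 69.5, 95.8, and 104 CPM in SK-UT-1B, so that the lines overlapped through SK-LMS-1 MK-0752 2-2, the lowest, and SK-LMS-1 DMSO 4-2, at 103 CPM. Its log2FC was 0.70 ± 0.24 after DMSO, under the minimum of 1, with an adjusted p of 0.0279. LAMA1, the early embryonic alpha chain, was low in both lines, with 7.21 to 18.1 CPM and a median of 10.2 in SK-LMS-1 and 4.85, 6.07, 4.89, and 6.50 CPM in SK-UT-1B. Its call after DMSO was close to the threshold (log2FC 1.18 ± 0.41, adjusted p = 0.0267) and was kept in 5 of the 12 alternative settings (another tool, scaling, filter, or model, or 1 library left out).

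Among laminin beta chains, LAMB3 (chr1:209614870-209652425) was close to absent from SK-UT-1B. It had 3943 to 7636 counts in the SK-LMS-1 libraries, 0 and 0 in SK-UT-1B after DMSO, and 9 and 0 after the combination, a difference of at least 4463-fold after DMSO (adjusted p = 8.12e-11). LAMB1, which most laminins of mesenchyme hold, had 818 to 991 CPM in SK-LMS-1 with a median of 881, and 177, 188, 240, and 199 CPM in SK-UT-1B. The lines did not overlap (log2FC 2.33 ± 0.13, adjusted p = 1.36e-11). LAMB2, the beta chain of the neuromuscular junction and the glomerulus, had 92.8 to 132.5 CPM in SK-LMS-1 and 92.3, 68.5, 111, and 71.4 in SK-UT-1B, with overlap after the combination (log2FC after DMSO 0.46 ± 0.19, adjusted p = 0.0593). LAMB4 had 0 to 59 counts in SK-LMS-1 and 0 in SK-UT-1B, and its log2FC of 6.24 ± 4.14 did not pass the test (adjusted p = 0.243).

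LAMC1, the gamma chain of most laminins, had 385 to 446 CPM in SK-LMS-1 with a median of 428 and 197, 235, 270, and 238 in SK-UT-1B. The lines did not overlap, and the log2FC of 0.92 ± 0.13 was under the minimum of 1 (adjusted p = 5.75e-06). LAMC3 (chr9:131009174-131094473) was a chain of SK-UT-1B, with 2077, 2559, 2184, and 1950 counts there and 0 to 61 in SK-LMS-1, where 3 of the 8 libraries had 0 (log2FC -6.98 ± 1.06, adjusted p = 0.00276). Leaving out 1 library moved this log2FC to between -10.89 and -6.57.

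**Figure D2:**
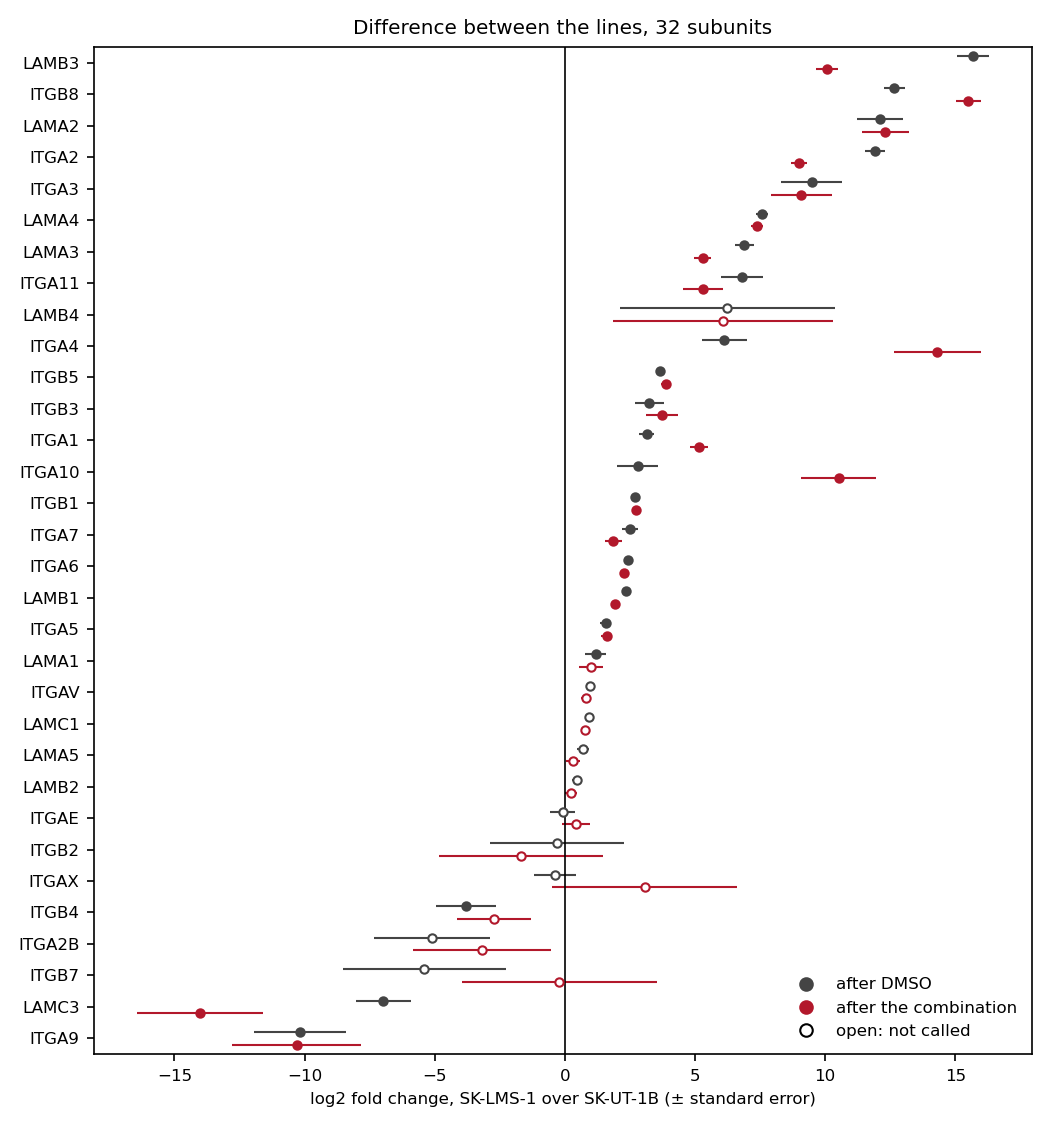
Difference between the lines for 32 subunits, as log2 fold change of SK-LMS-1 over SK-UT-1B with its standard error, after DMSO (grey) and after the combination (red), with open circles for subunits not called and fitted values, which are no bounds, for subunits at 0 in a line. LAMB3, ITGB8, LAMA2, and ITGA2 lie far to the right, LAMC3 and ITGA9 far to the left, and LAMB2, LAMA5, LAMC1, and ITGAV close to 0.

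To set subunits side by side, CPM were divided by the length of the union of exons of each gene and given as shares of their class in each library. Of the integrin beta subunits after DMSO, ITGB1 made up 62.0% ± 0.85 (SD, n = 4) in SK-LMS-1 and 73.0% ± 1.2 (SD, n = 2) in SK-UT-1B, and ITGB5 made up 31.3% ± 1.4 and 19.0% ± 1.46. The remainder was mostly ITGB8 in SK-LMS-1, at 4.67% ± 0.77, and ITGB4 in SK-UT-1B, at 6.15% ± 2.45. The lines thus shared the leading pair of beta subunits and differed in the minor ones. With the longest transcript in place of the union of exons the pair still led, with ITGB5 at 21.1% in SK-LMS-1 and 12.3% in SK-UT-1B, where ITGB4 stood at 3.12%.

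The integrin alpha subunits differed more. In SK-LMS-1 after DMSO, ITGA3 made up 49.6% ± 0.61 of the alpha subunits per kilobase, followed by ITGA6 at 15.8% ± 0.49, ITGA5 at 11.9% ± 1.3, and ITGA2 at 10.2% ± 0.73. The libraries of ITGA5 and ITGA2 overlapped, from 10.4% to 13.0% and from 9.46% to 10.9%. The order below ITGA3 depended on the length used, since with the longest transcript ITGA6 (11.4% ± 0.35) and ITGA5 (11.1% ± 1.2) were alike, and ITGAV (7.46% ± 0.49) stood above ITGA2 (6.49% ± 0.46). In SK-UT-1B, ITGA3 made up 0.644% ± 0.83, and ITGA5 (36.8% ± 9.3), ITGA6 (27.5% ± 7.2), and ITGAV (23.2% ± 0.94) led, in an order that the spread between the 2 libraries does not separate. With the longest transcript, ITGAV in SK-UT-1B stood at 34.7% and ITGA5 at 33.3%.

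Laminin alpha chains also differed between the lines. LAMA4 made up 68.8% ± 3.2 of the alpha chains per kilobase in SK-LMS-1 and 3.33% ± 0.40 in SK-UT-1B, where LAMA5 made up 89.8% ± 0.76 against 15.7% ± 2.9 in SK-LMS-1. LAMA3 made up 12.9% ± 0.98 in SK-LMS-1. Of the beta chains, SK-LMS-1 had LAMB1 at 45.2% ± 1.95, LAMB3 at 39.9% ± 1.9, and LAMB2 at 14.8% ± 1.3, whereas SK-UT-1B had LAMB2 at 54.1% ± 6.3 and LAMB1 at 45.9% ± 6.3. The shares in SK-UT-1B overlapped between the libraries. These shares also depended on the length used, and with the longest transcript LAMB1 led in both lines, at 67.2% ± 1.7 in SK-LMS-1, where LAMB3 made up 23.2% ± 1.5, and at 65.9% in SK-UT-1B. LAMC1 made up 99.2% ± 0.69 of the gamma chains in SK-LMS-1, and in SK-UT-1B LAMC1 made up 76.5% ± 3.0 and LAMC3 made up 23.5% ± 3.0. In SK-LMS-1 after DMSO, LAMB3 had 43.6 ± 3.1 CPM per kilobase and LAMA3 had 7.16 ± 0.29 (SD, n = 4), so these chains of the epithelial laminin were at unequal levels of RNA.

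**Figure D3:**
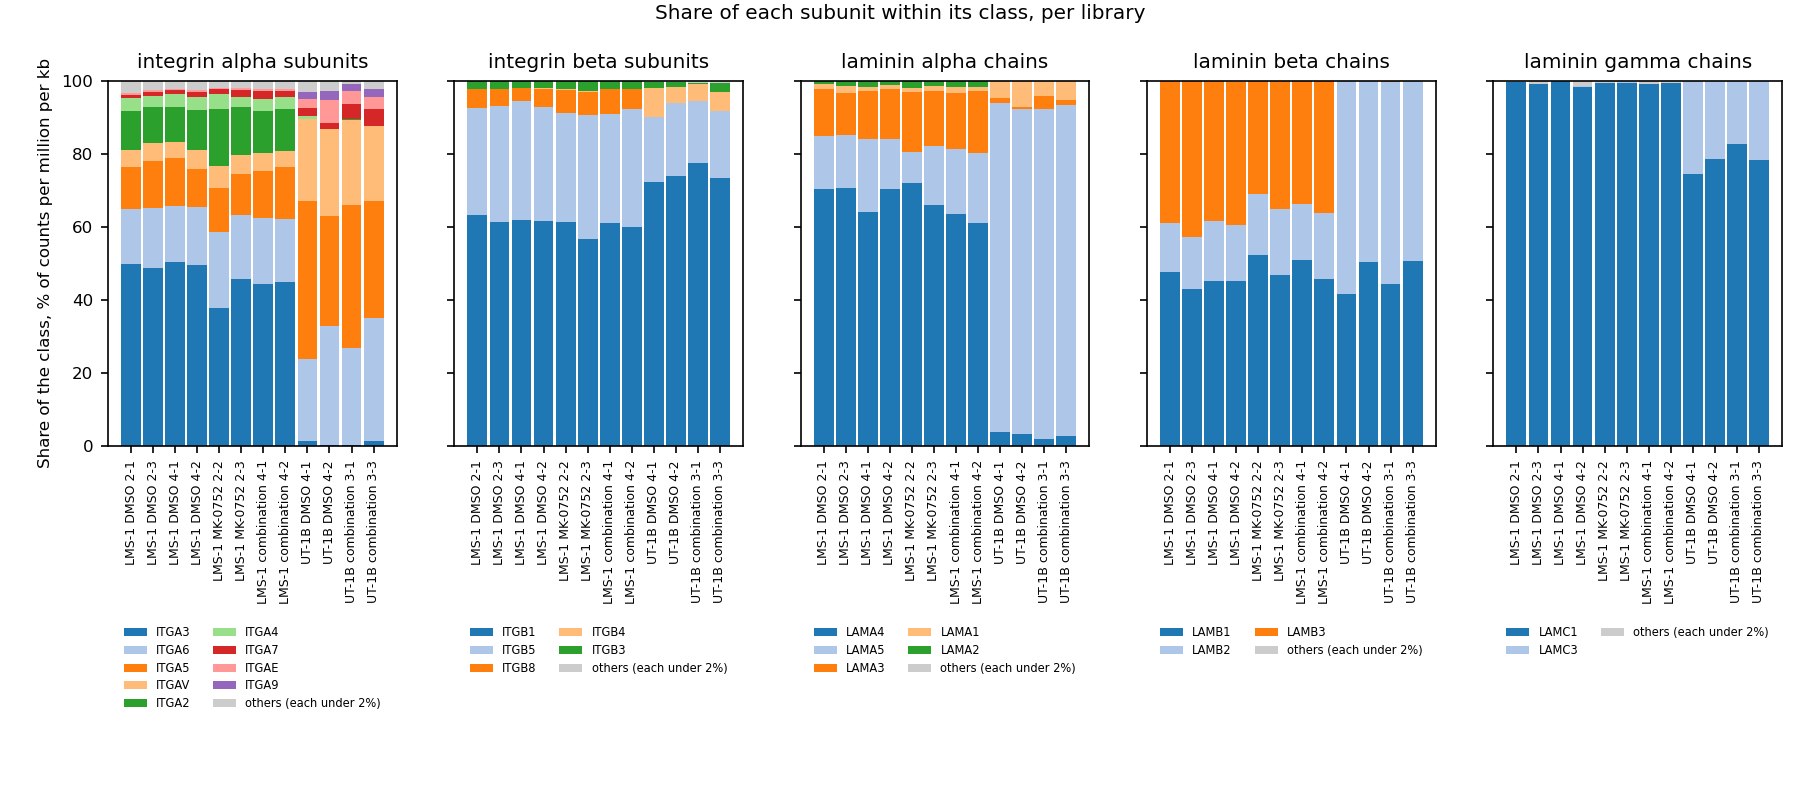
Share of each subunit within its class in each library, as a percentage of CPM per kilobase of exons, with a stacked bar per library and subunits under 2% in every library pooled in grey. Bars of a line resemble each other across treatments, and the lines differ in ITGA3 (49.6% against 0.644% after DMSO), LAMA4 (68.8% against 3.33%), LAMB3 (39.9% in SK-LMS-1 after DMSO, or 23.2% with the longest transcript), and LAMC3 (23.5% in SK-UT-1B after DMSO).

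After the combination, 19 of the 33 subunits were higher in SK-LMS-1 by the same rule, and LAMC3 and ITGA9 were lower, where 15.6% and 9.88% of all genes tested were. The calls of 21 of the 23 subunits called after DMSO were also made after the combination, and those of LAMA1 (log2FC 1.02 ± 0.46, adjusted p = 0.101) and ITGB4 (-2.74 ± 1.42, adjusted p = 0.167) were not. Subunits with 0 counts in a line gave lower bounds here, with ITGA4 at least 1697-fold, ITGA10 at least 119.5-fold, ITGB8 at least 3904-fold, and LAMA2 at least 429.5-fold above SK-UT-1B in SK-LMS-1, and LAMC3 at least 1227-fold and ITGA9 at least 95.5-fold lower. With the second library number as a replicate block, the adjusted p of LAMC3 was 0.0585.

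The second comparison asked which subunits changed after the combination in SK-UT-1B. ITGA2 and LAMA3 were upregulated and ITGA1 and ITGA10 were downregulated, which is 2 of the 33 tested in each direction, where 0.393% of all genes tested were upregulated and 0.166% were downregulated. Of the 4, 3 are collagen receptor subunits and 1 is a laminin chain. The first library number was 4 after DMSO and 3 after the combination, so that whatever this number marks and the treatment cannot be told apart. When only the 4 SK-UT-1B libraries were in the edgeR model, none of the 4 subunits was called, at an adjusted p of 0.635 for ITGA1, 0.644 for ITGA10, 0.918 for ITGA2, and 0.8 for LAMA3, and 0 of all genes were. DESeq2 called the same 4 and also ITGA7 and ITGA4, where it called 286 genes higher and 169 lower of 30051.

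ITGA1 (ENSG00000213949, hg38 chr5:52787916-52959209) had 122 and 221 counts after DMSO and 44 and 40 after the combination, or 4.22 and 5.86 CPM against 1.20 and 1.42. The lowest DMSO library was above the highest library of the combination. ITGA1 fell by 1.95 ± 0.32 (SE) on the log2 scale (adjusted p = 0.00403). PELO and RPL17P21 share 2.69% and 3.08% of the exon bases of ITGA1 on the same strand, and ITGA2-AS1 shares 7.47% on the opposite strand. Its counts are uncertain to that extent. ITGA10 (ENSG00000143127, chr1:145891208-145910111) had 47 and 19 counts after DMSO and 0 and 0 after the combination, at least 21.4-fold lower (log2FC -8.10 ± 1.45, adjusted p = 0.00999). Genes at 0 were common in these libraries, at 23.9% and 26.0% of the genes with 5 to 500 counts expected after the combination.

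ITGA2 (ENSG00000164171, chr5:52989340-53094779) had 3 and 0 counts after DMSO and 17 and 9 after the combination, a ratio of 8.91 with a 95% counting interval of 2.73 to 46.0 (log2FC 3.04 ± 0.63, adjusted p = 0.0267). These levels of 0.319 and 0.465 CPM remained far under the 168 to 254 CPM of SK-LMS-1. LAMA3 (ENSG00000053747, chr18:23689453-23956222) had 37 and 19 counts after DMSO and 133 and 52 after the combination (log2FC 1.68 ± 0.35, adjusted p = 0.0384). The groups of each gene did not overlap, but the gap between 37 and 52 counts was narrow for LAMA3. Both calls were lost without SK-UT-1B DMSO 4-2 (ITGA2 log2FC 1.90, adjusted p = 0.181, and LAMA3 1.11, adjusted p = 0.0588) and without SK-UT-1B combination 3-1 (ITGA2 2.69, adjusted p = 0.0721, and LAMA3 1.07, adjusted p = 0.0761).

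**Figure D4:**
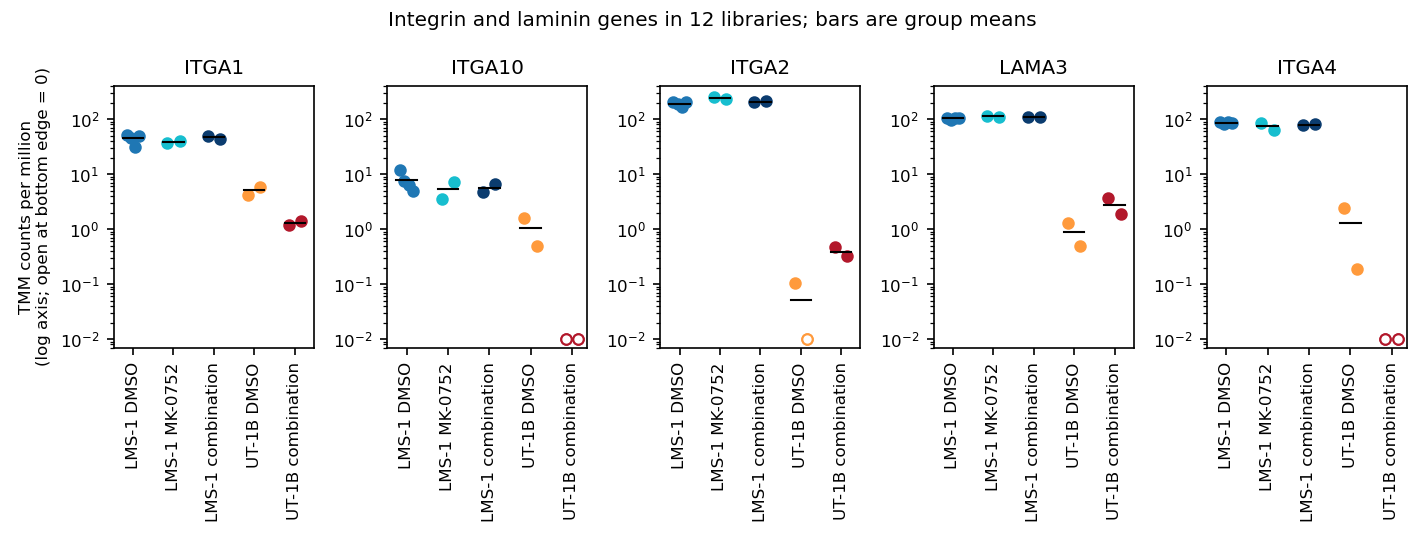
Level of ITGA1, ITGA10, ITGA2, LAMA3, and ITGA4 in each library, in TMM-scaled CPM on a log axis, by line and treatment, with bars for group means and open circles at the bottom edge for 0. In SK-UT-1B, ITGA1 and ITGA10 are lower and ITGA2 and LAMA3 higher after the combination than after DMSO, ITGA4 (not called) is at 0 after the combination, and in SK-LMS-1 the groups of each gene lie close together.

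The sequences before the start sites of these 4 subunits, and of LAMB3 as a subunit close to absent from SK-UT-1B, show what the promoters share by sequence. They were taken from a set of RefSeq promoter entries on GRCh38.p14. The set used holds 33 start sites of 26 of the 38 subunits, and RefSeq itself may hold others. Each run is given 5′ to 3′ on the strand of the gene and ends at the base before the RefSeq start, except that the window of ITGA10 stops where the GENCODE gene begins. Capitals mark matches on either strand to AP-1 (TGANTCA), TEAD (GGAATG), RBPJ (TGGGAA), SP1 and KLF (GGGCGG), or the SRF CArG box, motifs that can overlap one another.
ITGA1, chr5:52787666-52787915, + strand: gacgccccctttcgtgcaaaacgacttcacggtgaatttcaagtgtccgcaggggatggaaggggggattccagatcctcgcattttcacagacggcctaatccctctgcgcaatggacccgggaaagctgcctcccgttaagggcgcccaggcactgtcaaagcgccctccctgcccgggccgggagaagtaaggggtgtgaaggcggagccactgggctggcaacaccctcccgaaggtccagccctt
ITGA10, chr1:145910112-145910300, - strand: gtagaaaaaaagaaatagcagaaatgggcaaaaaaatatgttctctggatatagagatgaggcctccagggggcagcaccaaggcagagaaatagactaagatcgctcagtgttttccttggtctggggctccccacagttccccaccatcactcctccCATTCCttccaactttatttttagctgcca
ITGA2, chr5:52989102-52989351, + strand: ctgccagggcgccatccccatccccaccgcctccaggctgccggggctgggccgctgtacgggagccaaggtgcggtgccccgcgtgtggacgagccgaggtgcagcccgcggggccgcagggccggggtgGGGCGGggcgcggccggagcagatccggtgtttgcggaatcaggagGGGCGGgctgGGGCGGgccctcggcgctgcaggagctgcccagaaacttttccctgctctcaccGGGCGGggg
LAMA3, chr18:23872770-23873019, + strand: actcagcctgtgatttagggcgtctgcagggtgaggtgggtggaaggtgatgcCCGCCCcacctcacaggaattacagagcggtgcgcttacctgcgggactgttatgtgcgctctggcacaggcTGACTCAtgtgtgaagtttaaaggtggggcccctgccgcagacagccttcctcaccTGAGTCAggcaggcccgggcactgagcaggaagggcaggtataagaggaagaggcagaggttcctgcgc
LAMB3, chr1:209652426-209652675, - strand: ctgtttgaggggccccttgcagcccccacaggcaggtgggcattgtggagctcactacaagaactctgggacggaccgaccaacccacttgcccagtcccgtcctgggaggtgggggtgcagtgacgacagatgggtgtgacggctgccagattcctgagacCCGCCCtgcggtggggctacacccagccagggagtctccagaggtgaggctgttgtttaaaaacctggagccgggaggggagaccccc
LAMA3 had 2 matches to AP-1 and 1 to SP1 and KLF, ITGA2 had 4 to SP1 and KLF, LAMB3 had 1 to SP1 and KLF, ITGA10 had 1 to TEAD, and ITGA1 had none of the 5. LAMB3 has other RefSeq starts within its gene, and the window of the one 1051 bases from the gene start held 1 match to AP-1 and 1 to SP1 and KLF. The start of LAMA3 in this table lies 183567 bases inside the GENCODE gene. Over 250 bases before all 35116 RefSeq starts of this set, 6.57% held a match to AP-1, 11.9% to TEAD, 20.8% to RBPJ, 42.6% to SP1 and KLF, and 1.16% to the CArG box. A match describes the letters and is not a site of binding.

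The other 29 subunits tested in SK-UT-1B were not called. Leaving aside ITGA4 and LAMB3, which are described below, ITGA7 was the only subunit among them with an unadjusted p under 0.05. Of all genes tested, 10.5% had such a p. ITGA7 had 5.02 and 3.82 CPM after DMSO and 11.6 and 10.4 after the combination, without overlap (log2FC 1.32 ± 0.33, adjusted p = 0.0801). ITGA4 had 69 and 7 counts after DMSO and 0 and 0 after the combination, and LAMB3 had 9 counts in SK-UT-1B combination 3-1 and 0 in the other libraries of this line. Both could be tested only through their counts in SK-LMS-1, and nothing is read from their p. The most abundant subunits differed little, with a log2FC of 0.02 ± 0.14 for ITGB1, 0.27 ± 0.13 for LAMB1, 0.23 ± 0.14 for LAMC1, 0.28 ± 0.16 for ITGA6, and 0.38 ± 0.27 for LAMA5. Libraries did not overlap between treatments for 7 subunits that were higher and 3 that were lower, and the same held for 16.7% and 15.4% of all genes tested.

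In SK-LMS-1, no subunit passed the test after either treatment with all 12 libraries in the model and the filter on low counts. After the combination, 0 of 33 were called in either direction by edgeR against DMSO set 4, where it called 0.0142% of all genes tested up- and 0.00947% downregulated. DESeq2 also called 0 of the subunits, and 43 genes higher and 11 lower of 30051. By edgeR, 914 genes had an unadjusted p under 0.05. ITGB8 was the only subunit with an unadjusted p under 0.05, at 101 and 123 CPM after DMSO and 196 and 160 after the combination (log2FC 0.66 ± 0.19, unadjusted p = 0.00294, adjusted p = 0.907). The 4 subunits called in SK-UT-1B had a log2FC of 0.21 ± 0.28 for ITGA1, 0.01 ± 0.78 for ITGA10, 0.17 ± 0.20 for ITGA2, and 0.05 ± 0.27 for LAMA3. Libraries did not overlap between treatments for 8 subunits that were higher and 6 that were lower, where 21.0% and 11.4% of all genes tested did not.

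After MK-0752 alone, 0 of 33 were called against DMSO set 2 by edgeR, where it called 0.0568% of all genes tested up- and 0.194% downregulated and 1354 had an unadjusted p under 0.05. DESeq2 also called 0 of the subunits, and 62 genes higher and 115 lower of 30051. ITGA11 and ITGB8 had an unadjusted p under 0.05. ITGA11 had 30.6 and 23.4 CPM in the DMSO libraries of set 2 against 11.3 and 6.98 with MK-0752, without overlap (log2FC -1.56 ± 0.62, unadjusted p = 0.0244, adjusted p = 0.633). With no filter, and with only the libraries of this comparison in the model, edgeR called ITGA11 lower. In these settings 111 and 76 of all genes were called lower, against 41 as reported. ITGB8 had 138 and 127 CPM in those DMSO libraries against 189 and 170 with MK-0752 (log2FC 0.44 ± 0.19, unadjusted p = 0.035, adjusted p = 0.723). Libraries did not overlap for 7 subunits that were higher and 9 that were lower after MK-0752, where 16.9% and 17.5% of all genes tested did not. After both treatments, each against its own DMSO set, ITGA2, ITGA7, ITGB3, ITGB8, and LAMA3 were higher without overlap and ITGA11, ITGA3, LAMA4, and LAMB3 were lower, which is 5 and 4 of the 33, where 4.82% and 3.15% of all genes tested behaved so. None of these 9 passed the test in either comparison as reported. Between the DMSO sets themselves, edgeR and DESeq2 called 0 of 33, where edgeR called 0% of all genes tested and 1197 genes had an unadjusted p under 0.05. DESeq2 called 20 genes higher and 44 lower in set 4 than in set 2, of 30051, so controls of this line also differed by that tool. ITGA2B was the only subunit under that value (edgeR, unadjusted p = 0.0455 and adjusted p = 0.794), with 39 and 0 counts in set 2 and 0 and 0 in set 4.

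A test of the difference between treatment effects asked whether the lines responded unlike each other. ITGA1 was the only subunit called, with a difference of -2.16 ± 0.42 on the log2 scale (adjusted p = 0.0339), from the fall in SK-UT-1B against 0.21 ± 0.28 in SK-LMS-1. Of all genes tested, 0.0853% were called in this direction and 0.147% in the other. The first library number differed between DMSO and the combination in SK-UT-1B, and in SK-LMS-1 it did not. The difference of effects therefore cannot be told apart from whatever that number marks. The call of ITGA1 was lost with a mean of at least 50 counts required (adjusted p = 0.0649) and when the model held no library outside this comparison (adjusted p = 0.248). ITGA10 (difference -8.11 ± 1.70, adjusted p = 0.0594), ITGA2 (2.87 ± 0.67, adjusted p = 0.111), LAMA3 (1.63 ± 0.44, adjusted p = 0.278), and LAMB1 (0.44 ± 0.19, adjusted p = 0.615) had an unadjusted p under 0.05 but were not called. Of all genes tested, 1619 had an unadjusted p under 0.05. ITGA4 and LAMB3 had few counts in SK-UT-1B and could be tested only through SK-LMS-1, so nothing is read from their p here. When the effect of MK-0752 was set against that of the combination within SK-LMS-1, edgeR and DESeq2 called 0 of 33 and no subunit had an unadjusted p under 0.05. EdgeR called 0.00474% of all genes tested in 1 direction and 0.0332% in the other, and 1094 had an unadjusted p under 0.05. DESeq2 called 22 and 48 genes of 30051.

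Genes that act with the subunits were followed through 7 lists of 84 genes, of which 79 could be tested. The lists were chosen by function, with earlier results of these data known. After DMSO, 39 of the 79 were higher in SK-LMS-1 and 7 were lower, with a median log2FC of 1.42, where 17.0% of all genes tested were higher and 14.1% lower with a median of 0.00. By list, 8 of 13 other integrin ligands were higher and 3 lower, 7 of 14 basement membrane partners of laminin were higher and 2 lower, 12 of 26 focal adhesion adaptors were higher and 1 lower, and 3 of 9 other laminin receptors were higher and 1 lower. All 4 genes listed with the hemidesmosome (PLEC, DST, COL17A1, and CD151) and 5 of 7 tetraspanins and CD47 were higher in SK-LMS-1, and 1 of 7 signaling kinases (FYN) was. The counts of kinases higher and of basement membrane partners and other laminin receptors lower were close to the shares over all genes. The 4 genes listed with the hemidesmosome were thus higher in the line in which ITGB4 was lower. Of these, CD151 is also in the tetraspanin list, and COL17A1 had only 32 to 139 counts in SK-LMS-1. Whether either line forms hemidesmosomes was not tested.

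The highest fitted log2FC among these genes were those of EDIL3, NID2, VCAM1, CCN1, and COL17A1, some of which were at 0 in SK-UT-1B, where fitted values set no order, and the lowest were those of FREM2, NPNT, NID1, POSTN, and KANK1. EDIL3, a ligand of integrins with ITGAV, had 4082 to 9284 counts in the SK-LMS-1 libraries and 0 in all of SK-UT-1B. VCAM1, the ligand of ITGA4, had 418 to 875 counts in SK-LMS-1 and 0 in SK-UT-1B, as ITGA4 itself was high in SK-LMS-1. FREM2, a basement membrane protein, had 80288 to 97947 counts in SK-UT-1B and 0 to 22 in SK-LMS-1. NID1 and NID2, which link laminin to collagen, ran in opposite directions, with NID1 lower by 2.90 ± 0.14 on the log2 scale in SK-LMS-1 (adjusted p = 1.4e-12) and NID2 at least 2687-fold higher. FN1, the ligand of ITGA5, had a mean of 7449 ± 505 CPM (SD, n = 4) in SK-LMS-1 and 254 ± 24.9 (n = 2) in SK-UT-1B after DMSO.

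Treatment called 1 gene of these lists in SK-UT-1B and 1 in SK-LMS-1, both lower, where 0.166% and 0.194% of all genes tested were. COL4A5, a basement membrane collagen chain, had 47 and 12 counts after DMSO and 1 and 0 after the combination in SK-UT-1B, a ratio of 57.4 with a 95% counting interval of 9.91 to 2305 (log2FC -5.62 ± 0.97, adjusted p = 0.01). CCN2, a matricellular integrin ligand, fell by 1.14 ± 0.18 on the log2 scale after MK-0752 in SK-LMS-1 (adjusted p = 0.00488), from 165 ± 6.7 to 75.0 ± 3.7 CPM (SD, n = 2 each). CCN1, from the same list, was not called, although it had 603.5 and 703.9 CPM in DMSO set 2 and 218.0 and 212.9 with MK-0752. Its counts in SK-UT-1B, whose libraries were in the same model, ranged from 0 to 90. Why CCN1 was not called was not tested.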

How the data were processed

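RNA sequencing reads of 12 libraries were deposited as whole-number counts per gene. Count columns of SK-UT-1B carry the name of the line, and the other columns carry none. The latter were assigned to SK-LMS-1 because their names match its sample titles, and every comparison between the lines rests on this. Before deposition the authors trimmed adaptors (Trim Galore 0.3.7), aligned reads to hg38 (STAR 2.7.9a), removed ribosomal RNA, and counted reads per gene with STAR, and DESeq2 1.42.0 is in the submitters' processing notes. The kit was stranded. The strand setting and annotation of the counts are not given in the sources used here, so opposite-strand or shared exons make some subunits uncertain (6 share exon bases on the same strand and 19 on the opposite strand).

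From these counts, edgeR 4.0.16 (R 4.3.3) was run with TMM scaling, its filter on low counts, and robust quasi-likelihood tests on all 12 libraries in 6 groups of 2, with p-values adjusted over 21114 genes. Standard errors come from the test statistic. Where a group holds few counts, as for ITGA2, ITGB8, and COL4A5 in SK-UT-1B, they are smaller than counting error, and the counting interval is the wider measure. DESeq2 1.42.0, other scalings and filters, smaller models, a replicate block, and leaving out each library were alternatives. Coordinates and exon lengths came from GENCODE release 44. Members and lists were chosen with earlier results of these data known. Named members were those called for treatment, the 6 highest and 6 lowest log2FC called between lines after DMSO, the highest per kilobase of each role and line, and those whose call differed between DMSO and the combination. ITGA4, ITGA7, LAMB3, ITGA11, and ITGB8 were named for an unadjusted p under 0.05. Counts of 19607 genes were simulated from mean levels over all 6 groups, with 200 genes changed 4-fold in the SK-UT-1B combination. In this simulation 82% of changed genes were recovered, 5.75% of calls were false, and 2 genes were called between the unchanged DMSO sets. Changed genes were drawn only above a minimum mean level over both lines, and no zeros were added beyond the fitted spread. These rates therefore do not cover subunits with few counts in SK-UT-1B. Totals of 25250057 to 40709885 counts limit members with few counts. A subunit and a marker gene are not reported here by name, but remain in the counts over all subunits.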

Additional observations from a re-analysis of the deposited data

Results flagged for a closer look

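A single library stood apart from the other 3 among the 4 SK-LMS-1 DMSO libraries for 4 of the 33 subunits checked, by the gap to the nearest library as a share of the whole range, where chance flags about 1 in 20 (Dixon's test at 95%) if values vary smoothly, which does not hold for counts with many zeros. The share was 1.000 for ITGA2B, whose counts were 39, 0, 0, and 0, and 1.000 for ITGAX, whose counts were 0, 8, 0, and 0. With 3 libraries at 0 this share is 1.000 whatever the count of the fourth, so nothing is read from these 2. It was 0.858 for LAMB4, with 0, 6, 0, and 59 counts. It was 0.899 for LAMA3, where library 2-3 had 97.5 CPM and the others 105 to 106, so the range itself was narrow.

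The effect of the combination on ITGA1 differed between the lines by the test of the difference itself, at -2.16 on the log2 scale (SK-UT-1B minus SK-LMS-1, adjusted p = 0.0339). The call was lost with a mean of at least 50 counts required. It was also lost with only the libraries of this comparison in the model (adjusted p = 0.248). Whatever the first library number marks in SK-UT-1B cannot be told apart from this difference.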

How the results depend on the processing

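Between the lines, 20 of the 23 calls after DMSO and 20 of the 21 after the combination held under every alternative run. The exceptions were LAMA1 (log2FC 0.99 to 1.36), ITGB4 with only the libraries of the comparison (adjusted p = 0.0502), ITGA10 without SK-UT-1B DMSO 4-2 (adjusted p = 0.105), and, after the combination, LAMC3 under the replicate block (log2FC -14.39, adjusted p = 0.0585), which left 1 subunit lower. In SK-UT-1B none of the 4 calls held throughout. With a mean of at least 50 counts required, 0 subunits were higher, where 62 of all genes were higher and 19 lower, against 83 and 35 as reported. With every gene that had a count, 4 were higher, where the calls over all genes rose to 259 and 161. With only the libraries of the comparison, 0 were higher and 0 lower, of the subunits and of all genes. For the difference of the combination effect between the lines, DESeq2 called 1 subunit higher and 3 lower, the filter at 50 counts left 0 lower, no filter gave 3 higher and 2 lower, the smaller model gave 0 lower, and the block gave 1 higher. Over all genes the calls for this difference were 31 higher and 18 lower as reported, 102 and 90 by DESeq2, 17 and 7 with that filter, 159 and 144 with none, 13 and 7 in the smaller model, and 35 and 24 with the block. For MK-0752, no filter and the smaller model each called 1 subunit lower, ITGA11, where the genes called lower went from 41 to 111 and 76. The cause of these changes was not tested.

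Leaving out 1 library at a time, where the lone library of a group is assumed to vary like the other groups, gave 19 to 20 higher and 3 to 4 lower after DMSO, 19 to 20 and 2 after the combination, and 0 to 4 and 3 to 5 in SK-UT-1B. It gave 2 to 4 and 3 to 4 for the difference of the combination effect, 0 and 0 to 1 for MK-0752, 0 to 1 and 0 to 1 for the combination in SK-LMS-1, 0 to 1 and 0 for the difference between MK-0752 and the combination, and 0 to 1 and 0 to 1 between the DMSO sets. The calls over all genes also rose in these runs, to 157 to 561 higher and 153 to 495 lower in SK-UT-1B, 132 to 399 and 140 to 429 for the difference of the combination effect, 28 to 159 and 69 to 111 for MK-0752, 38 to 195 and 16 to 52 for the combination in SK-LMS-1, 25 to 119 and 45 to 178 for the difference between MK-0752 and the combination, and 28 to 148 and 51 to 226 between the DMSO sets. These runs also tested more genes, 24346 to 24756 against 21114 as reported, so the libraries and the genes tested changed together. Which of them raised the calls was not tested. No direction was reversed. Leaving out 1 library also moved the log2FC after DMSO to between 10.79 and 15.59 for ITGA2 and between 11.63 and 14.95 for ITGB8. Second library numbers shared by DMSO set 4 and the combination in SK-LMS-1 did not pair the libraries (correlation of deviations -0.012 over 21114 genes, 2 shared numbers), and with the number as a replicate block ITGA1 in SK-UT-1B had a log2FC of -1.87 (adjusted p = 0.00372). The depth and the many zeros limit members with few counts.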
